A study of Mus musculus with 2 samples.

Results

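Leukocyte microRNAs are made in blood-borne and tissue-resident immune cells, and 6 microRNA genes known from those cells were followed here in the embryonic lung. Mir223, Mir155, Mir150, Mir146 (which encodes miR-146a) and Mir146b were read on their annotated strand. Mir142b was read on the strand opposite to its annotation, where Mir142 lies. The 6 genes were taken by name from the 1973 microRNA genes of each count table, and 5 of the 6 reached at least 10 counts in both libraries. On the annotated strand 357 of 1973 genes, 18.1%, reached that minimum.

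Small RNA was sequenced from whole lungs of B6NCrl mouse embryos at embryonic day 15.5, with no treatment or genetic change named in the labels. The study holds 1 group with 2 biological replicates, both from pools of male and female embryos, 78 embryos in replicate 1 and 62 in replicate 2. Both pools carry the same donor identifier, and the single animals within a pool cannot be told apart. Counts on the annotated strand came to 5354530 in replicate 1 and 6489390 in replicate 2. Levels are given in CPM (counts per 1000000 annotated-strand gene counts), where a single read was worth 0.187 and 0.154 CPM. The floor of 3 counts, the most that a count of 0 allows, equalled 0.560 and 0.462 CPM, and floors and intervals cover counting error only. The design holds no comparison between conditions, so levels are described, and each difference is set against the spread between the 2 pools. Both libraries held Mir200c, known from epithelium, and Mir126a, known from endothelium, at 10967 ± 222 and 67953 ± 1347 CPM (SD, n = 2). The 5 epithelial genes listed here had mean levels from 855 to 13376 CPM.

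A microRNA is cut from a hairpin precursor and guides silencing complexes to messenger RNAs that pair with its seed, the bases near its 5′ end. miR-142 is present in nearly all blood cell lineages. miR-223 is known from neutrophils and other myeloid cells, miR-150 from mature B and T lymphocytes, miR-155 from activated lymphocytes and macrophages, and the miR-146 pair from feedback on signalling by Toll-like receptors. Before birth the lung holds macrophages seeded from yolk sac and fetal liver, while lymphocytes are few.

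The mature sequences show which genes could act on the same targets and which reads can be told apart. RefSeq (GRCm38.p6) held 12 mature sequences for the 6 genes and Mir142, of 20 to 23 bases. Counts are per gene, so the arms of a hairpin are not separated in the levels. Sequences of each gene are printed 5′ to 3′ with the seed, bases 2 to 8, in capitals.
miR-142a-5p: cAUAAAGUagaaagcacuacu
miR-142a-3p: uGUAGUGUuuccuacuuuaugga
miR-142b: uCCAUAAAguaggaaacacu
miR-223-3p: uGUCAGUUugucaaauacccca
miR-146a-5p: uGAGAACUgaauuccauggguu
miR-146b-5p: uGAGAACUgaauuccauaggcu
miR-155-5p: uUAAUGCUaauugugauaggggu
miR-150-3p: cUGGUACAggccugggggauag
For Mir150 the 3p arm is shown, and miR-150-5p is not part of the seed search. Among 1738 mature mouse sequences searched, the seed of miR-146a-5p was shared with miR-146b-5p. None of the other 10 mature sequences of these genes had a seed in common with another gene's product.

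miR-146a-5p and miR-146b-5p were identical at 20 of 22 positions. Their first 17 bases were the same, and they differed by G18A and U21C, the base of miR-146a-5p first and positions counted from 1 at the 5′ end. The longest run of bases common to their precursors was 21. A read that ends within that run can map to both genes, and reads mapped to several places were on a line of their own in the tables. Mir142b, Mir223, Mir155 and Mir150 had no run of 20 bases in common with any of the 2202 precursors searched on the same strand.

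miR-142b and miR-142a-3p come from opposite strands of 1 locus. The reverse complement of miR-142b matched bases 4 to 23 of miR-142a-3p, and the 64-base Mir142 hairpin lay whole within the reverse complement of the 115-base Mir142b hairpin. In mm10 (GRCm38) Mir142b (ENSMUSG00000065420.2) spans 87756841 to 87756955 on the minus strand of chromosome 11. Mir142 lies at 87756864 to 87756927, plus strand, in an intron of the noncoding gene Mir142hg, and has no row of its own in the count tables.

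Mir142b had 7944 reads on the opposite strand in replicate 1 and 6422 in replicate 2, and 0 on its annotated strand in both. All of the locus's counted reads thus had the orientation of Mir142, and a product of the annotated Mir142b strand was not detectable above 0.560 and 0.462 CPM. Of 1973 genes, 16 (0.811%) had at least 10 opposite-strand counts in both libraries, and 7 (0.355%) of them had no annotated-strand count, Mir142b among these. By opposite-strand counts Mir142b stood eighth, with 4.95% of such reads in replicate 1 and 3.34% in replicate 2. Mir223, Mir146, Mir155, Mir150 and Mir146b had 0 opposite-strand reads in both libraries, so for these 5 genes the choice of strand did not alter the counts.

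Reads at the Mir142 locus were the most abundant of the 6, at 1484 CPM in replicate 1 and 990 CPM in replicate 2 (1237 ± 349 CPM, SD, n = 2). Replicate 1 was the higher, and even the lower value stood above every other gene of the 6 in both libraries. Mir223, the myeloid microRNA, had 3669 and 4207 reads, or 685 and 648 CPM (667 ± 26.1 CPM, SD, n = 2). Mir223 (ENSMUSG00000076066.1) lies on chromosome X at 96242817 to 96242926, plus strand, in an exon of the noncoding gene F630028O10Rik. The Mir142 locus exceeded Mir223 by 2.17-fold in replicate 1 and 1.53-fold in replicate 2 (log2 0.86 ± 0.36, SD, n = 2), so the size of this step differed between the pools while its direction did not.

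Mir146, a regulator of inflammatory signalling, had 1355 and 1466 reads, or 253 and 226 CPM (239 ± 19.2 CPM, SD, n = 2). It lies on chromosome 11 at 43374397 to 43374461, minus strand (ENSMUSG00000065601.1), within no annotated host gene. Mir146b, its seed partner, had 4 and 2 reads, or 0.747 and 0.308 CPM, with exact 95% Poisson intervals of 0.204 to 1.91 CPM and 0.0373 to 1.11 CPM. Mir146b lies on chromosome 19 at 46342762 to 46342870, plus strand (ENSMUSG00000070127.2), in an intron of the protein-coding gene Mfsd13a. The ratio of Mir146 to Mir146b was 339 in replicate 1 and 733 in replicate 2 (log2 8.96 ± 0.79, SD, n = 2). With the reads of both libraries summed there were 2821 of Mir146 for 6 of Mir146b, a ratio of 470. Its exact 95% interval of 216 to 1282 covers counting error only and not the spread between the pools. Reads of the pair that could be assigned to 1 gene therefore came almost wholly from Mir146, with 0.212% from Mir146b. These are reads of both arms, so the share of reads with the common seed was not measured. How many reads of either gene mapped to several places was not tested.

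Mir155, known from activated lymphocytes and macrophages, had 668 reads in replicate 1 and 508 in replicate 2, or 125 and 78.3 CPM (102 ± 32.9 CPM, SD, n = 2). It lies on chromosome 16 at 84714140 to 84714204, plus strand (ENSMUSG00000065397.1), in an exon of its noncoding host gene Mir155hg. Mir150, the lymphocyte microRNA, had 217 and 265 reads, or 40.5 and 40.8 CPM (40.7 ± 0.219 CPM, SD, n = 2). Mir150 lies on chromosome 7 at 45121757 to 45121821, plus strand (ENSMUSG00000065495.1), within no annotated host gene. The levels of Mir150 in the 2 pools were closer than counting error alone, since the Poisson interval of replicate 1 ran from 35.3 to 46.3 CPM.

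**Figure D1:**
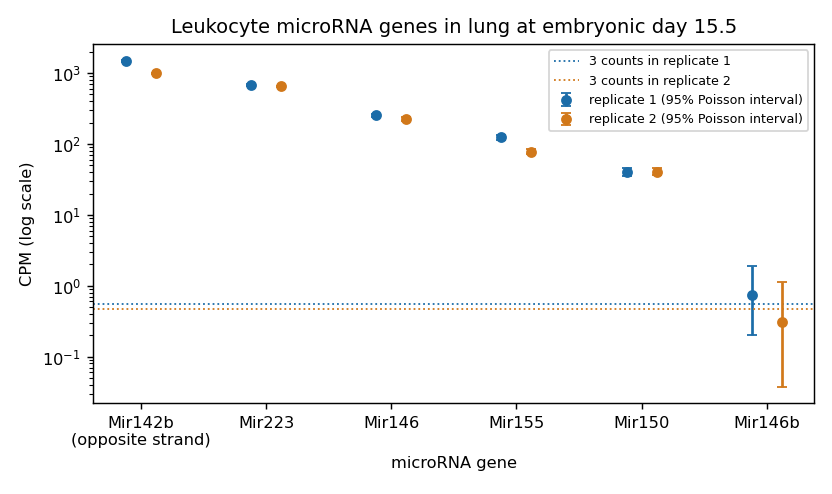
CPM (log scale) of each of the 6 leukocyte microRNA genes in replicate 1 and replicate 2, with exact 95% Poisson intervals and dotted lines at 3 counts; Mir142b is counted on the opposite strand. Levels run from 1484 and 990 CPM at the Mir142 locus down to 40.5 and 40.8 CPM for Mir150, and the intervals of Mir146b span the 3-count lines.

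The order of the 6 levels was the same in both libraries, the Mir142 locus first, then Mir223, Mir146, Mir155, Mir150 and Mir146b. No neighbours in that order overlapped between the pools. Mir223 exceeded Mir146 by 2.79-fold (log2 1.48 ± 0.06), the most even step of the 5 by its SD. Mir146 exceeded Mir155 by 2.42-fold (log2 1.27 ± 0.36) and Mir155 exceeded Mir150 by 2.43-fold (log2 1.28 ± 0.48, SD, n = 2 for each). A count here is 1 read of a product of nearly uniform length, so levels were compared without a length correction. The spread between the pools would not reveal a preference of the library method for some sequences over others.

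The 5 detected leukocyte genes spread over ranks 87 to 227 by mean CPM, each placed on its own among annotated-strand levels. Opposite-strand reads of other genes are thus left out, and the Mir142 locus is not counted above the others. With 86 annotated-strand genes above it, the Mir142 locus stood higher than 75.9% of the 357 detected genes. Mir223 ranked 110th and stood above 69.2% of them, Mir146 ranked 153rd (57.4%), Mir155 186th (47.9%) and Mir150 227th (36.4%).

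**Figure D2:**
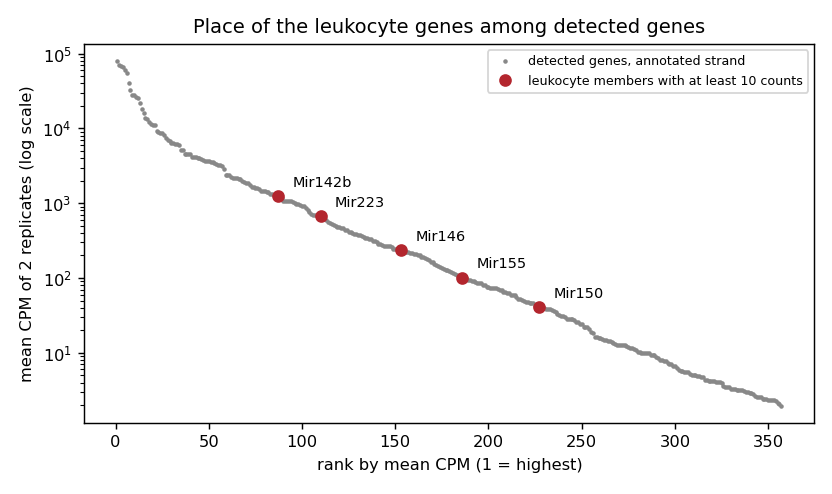
Mean CPM over the 2 replicates (log scale) against rank for the 357 detected genes (grey), with the 5 leukocyte genes of at least 10 counts in red; Mir142b is placed by its opposite-strand reads. The 5 genes spread from rank 87 to rank 227.

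Genes whose levels lay nearest in both libraries were found by the distance of their log2 CPM over the 2 libraries, among 353 detected genes outside the 6. With 2 libraries this measures a like level and a like difference between the pools. Mir223 lay nearest to Mir106a (681 and 609 CPM, distance 0.09), Mir146 to Mir485 (264 and 228 CPM, distance 0.06), and Mir150 to Mir666 (38.5 and 41.9 CPM, distance 0.08). Mir155 lay nearest to Mir128-1, at 118 and 70.9 CPM (distance 0.16). The Mir142 locus had no gene as close, its nearest being Mir15b at 1231 and 1092 CPM (distance 0.30), and Mir146b lay below the detected range, 2.93 from Mir504.

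Between the pools, the Mir142 locus and Mir155 differed most among the detected leukocyte genes. Mir155 was 1.59-fold lower in replicate 2 than in replicate 1, with an exact 95% binomial interval of 1.42 to 1.79. The Mir142 locus was 1.499-fold lower in replicate 2, with an interval of 1.45 to 1.55. Mir146 was 1.12-fold lower (1.04 to 1.21) and Mir223 1.06-fold lower (1.01 to 1.11), whereas Mir150 was 1.01-fold higher, with a log2 interval of -0.25 to 0.28. The leukocyte genes thus did not keep a fixed proportion to one another from pool to pool. The intervals measure counting error in 1 library of each pool, and no test between pools is possible with each sequenced once.

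Past 1.5-fold, 35 of the 357 detected genes (9.80%) differed between the pools, 16 (4.48%) higher and 19 (5.32%) lower in replicate 2. Of the 4 detected leukocyte genes on the annotated strand, 1 did, Mir155. By intervals that exclude equal CPM, 3 of these 4 were lower in replicate 2, where 25.2% of detected genes were lower and 44.8% differed in either direction. The count was 2 of 4 with TMM scaling or DESeq2 size factors, because the upper limit for Mir223, at log2 -0.02, moved to 0.01 and 0.0004. The share of detected genes lower by their interval fell as well. It was 19.9% with TMM scaling, and with DESeq2 size factors it lay between 19.9% and 25.2%. The median detected gene differed by 1.10-fold, and 92.4% of detected genes differed by less than Mir155 and 90.2% by less than the Mir142 locus. Genes with few counts weigh on those shares: among the 141 detected genes with mean CPM between those of Mir150 and the Mir142 locus, 9 (6.38%) were past 1.5-fold, 7 of them lower in replicate 2.

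The ratio at the Mir142 locus was set beside those of other opposite-strand reads. Opposite-strand reads were 2.91% of all gene counts in replicate 1 and 2.88% in replicate 2. Among the 9 other genes with at least 1000 opposite-strand counts in all, replicate 2 over replicate 1 ranged from 0.937-fold to 1.11-fold, against 0.667-fold at the Mir142 locus. Among all 15 other genes with at least 10 such counts in both libraries, some with few reads, it ranged from 0.398-fold to 1.69-fold. Whether counting on the opposite strand had a part in the lower value at the Mir142 locus was not tested.

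**Figure D3:**
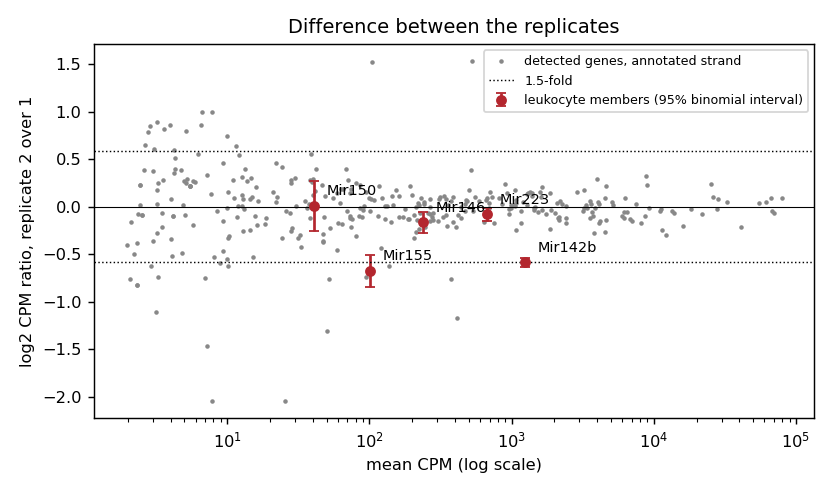
Log2 ratio of CPM in replicate 2 over replicate 1 against mean CPM (log scale) for the 357 detected genes (grey) and the 5 detected leukocyte genes (red, with exact 95% binomial intervals); dotted lines mark 1.5-fold. Mir155 and the Mir142 locus lie near the lower line at -0.67 and -0.58, while Mir223, Mir146 and Mir150 lie between -0.16 and 0.01.

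Markers of other tissues moved between the pools as well. Mir122, the liver microRNA and the whole of the liver list, was at 470 CPM in replicate 1 and 278 CPM in replicate 2, 1.69-fold lower. The 3 cardiac muscle genes, all detected, took 0.0873% and 0.108% of the counts, a sum of members that moved in opposite directions. Mir208a, in the gene of a cardiac myosin, went from 573 CPM in replicate 1 to 255 CPM in replicate 2. Mir208b, in another myosin gene, went from 269 to 780 CPM, and Mir499 from 31.6 to 46.4 CPM. The 3 erythroid genes took 0.0706% and 0.0855%, a difference carried by Mir451a, which was 1.31-fold higher in replicate 2, while Mir144 and Mir486 were each at 1.04-fold with log2 intervals that span 0 (-0.05 to 0.16 and -0.31 to 0.42). Lists of the lung's own cells moved less, with the miR-200 family at 3.19% and 3.15% and the Mir143 and Mir145a list at 7.76% and 8.31%. The part of neighbouring tissue and blood in the difference of the leukocyte genes was not tested.

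The 6 leukocyte genes together took 0.259% of the counts in replicate 1 and 0.198% in replicate 2 (0.229% ± 0.0428, SD, n = 2). Each share is relative to annotated-strand gene counts, a total that leaves out the reads at the Mir142 locus. It is thus a ratio to that total, and with both strands in the total the mean was 0.222%. The exact 95% binomial interval, computed as for a proportion, was 0.255% to 0.263% and 0.195% to 0.202%. The Mir142 locus made up 57.3% of the list in replicate 1 and 49.9% in replicate 2, and Mir223 made up 26.5% and 32.7%. Without Mir142b, whose inclusion followed from earlier results of these data, the list took 0.105%. In a whole organ, fewer cells of a type and less RNA per cell cannot be told apart, so these shares do not count leukocytes.

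The erythroid list is the other blood list, with Mir451a and Mir144, made from 1 cluster in red cell precursors, and Mir486. Mir451a was at 445 and 585 CPM, Mir144 at 238 and 248 CPM and Mir486 at 21.7 and 22.5 CPM in replicates 1 and 2. No row used had the name Mir451b, Mir3107 or Mir486b. Opposite-strand reads of Mir486, 12 in replicate 1 and 21 in replicate 2, were not counted in the erythroid list. Reads mapped to several places are in no gene's count. How many came from Mir486 or other genes of the 2 lists was not tested, so either sum may be too low. The leukocyte list exceeded the erythroid list by 2.92-fold (log2 1.87 in replicate 1 and 1.21 in replicate 2, 1.54 ± 0.47, SD, n = 2). Without Mir142b the difference was log2 0.43, so the Mir142 locus carried most of it. Counted without regard to strand, the full lists differed by log2 1.54 as well. Mir451a alone stood below Mir223 in both libraries, by values of 685 against 445 CPM in replicate 1 and 648 against 585 CPM in replicate 2.

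Endothelium was represented by Mir126a, at 68906 and 67001 CPM. The leukocyte list lay 30.0-fold below it (log2 -4.91 ± 0.24), 14.0-fold below the epithelial miR-200 family (log2 -3.81 ± 0.26) and 35.4-fold below the smooth muscle list of Mir143 and Mir145a (log2 -5.15 ± 0.34, SD, n = 2 for each). Both libraries gave the same direction for each of these lists and for the erythroid list. Exact sign flips over 2 libraries cannot give a 2-sided p below 0.50, so no difference between lists could pass a threshold of 0.05.

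**Figure D4:**
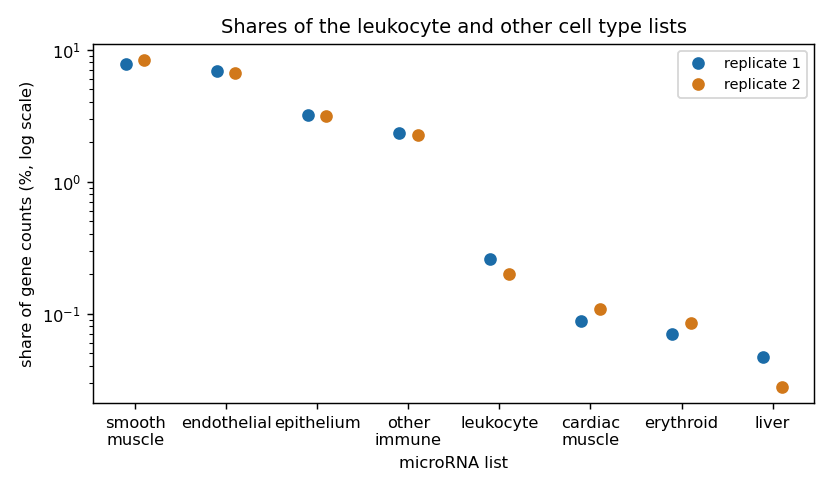
Counts of the leukocyte genes and of lists of other cell types, as a percentage of annotated-strand gene counts (log scale), in replicate 1 and replicate 2. Mir142b is counted on the opposite strand, outside that total. The leukocyte list, at 0.259% and 0.198%, lies between the other immune list (2.33% and 2.25%) and the cardiac muscle, erythroid and liver lists.

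A list of 15 other microRNAs with known roles in immune cells held 15 detected genes and took 2.29% ± 0.0581 of the counts (SD, n = 2), 10.1-fold more than the leukocyte genes. Many of them are also made in other cell types, so their level is no measure of leukocytes. The highest was Mir21a, induced in activated macrophages and in injured epithelium, at 8703 ± 395 CPM. Mir15a followed at 4053 ± 96.3 CPM and Mir342, in B cells and macrophages among others, at 3713 ± 177 CPM. Mir16-1 was at 2165 ± 112 CPM, Mir181a-1, a microRNA of thymocytes, at 1896 ± 27.8 CPM and Mir181b-2 at 1343 ± 105 CPM (SD, n = 2 for each). Mir16-1 and the Mir181 genes have near-identical copies elsewhere in the genome, so their counts are uncertain. Between the pools 11 of the 15 were lower in replicate 2, against 49.0% of all detected genes. Of the 15, 8 were lower and 2 higher by intervals that exclude equal CPM, and 1, Mir511, was past 1.5-fold, against 25.2% of detected genes lower by their interval and 5.32% lower past 1.5-fold. With TMM scaling 6 of the 15 were lower by their interval, against 19.9% of detected genes.

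The immune genes of that list with the fewest reads were named after their values were seen. Mir511, which lies in the gene of the macrophage mannose receptor, had 23 reads in replicate 1 and 13 in replicate 2, or 4.30 and 2.00 CPM. Mir147, induced in stimulated macrophages, had 30 and 26 reads, or 5.60 and 4.01 CPM. Both were lower in replicate 2, and the log2 interval of Mir511 (-2.20 to -0.06) excluded 0 while that of Mir147 (-1.30 to 0.32) did not. Mir511 and Mir147 thus stood below Mir150, the lowest of the detected leukocyte genes, in both libraries. Mir21a and Mir342, also tied to macrophages above, went the other way, at 8703 and 3713 CPM against 40.7 CPM for Mir150. Mir511 and Mir147 therefore do not stand for macrophage microRNAs as a set.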

How the data were processed

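Per the file headers of the readme texts, the authors used mm10 and annotation M4, and they deposited raw read counts per microRNA gene. The aligner and counter were not given in the sources used here. The totals show 3 count columns in each table, for both strands, the annotated strand and its opposite. Library sizes leave out the 4 summary lines. Reads mapped to several places were 31.4% and 30.6% of all reads. Names and positions came from GENCODE M21 (GRCm38), which matched 1894 of 1973 identifiers. Gene lists and the 6 genes were chosen with earlier results of these data known.

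CPM, means and SDs were computed from the annotated strand, and for Mir142b from the opposite strand. Named by rule were the 6 genes, the erythroid and endothelial lists and up to 6 of the highest other immune genes. The nearest detected gene of each of the 6 was named too. Genes of the liver, cardiac muscle, epithelial and smooth muscle lists were named outside that rule, as were Mir511 and Mir147. A gene with 10 counts in both libraries was called detected. Ratios carry exact binomial intervals. The computation was tested on simulated counts with counting error only, which cannot show how the intervals serve under variation between pools. Precursors were searched for shared runs of 20 bases. Alternatives were other totals, counts without regard to strand, TMM scaling (edgeR 4.0.16), size factors (DESeq2 1.42.0), other count minimums, and lists without 1 gene or replicate. Python 3.11.15, scipy 1.17.1 and R 4.3.3 were used.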

Additional observations from a re-analysis of the deposited data

How the results depend on the processing

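With all reads of each library as the total, the 6 genes summed to 1083 CPM, 0.108% of reads, in place of 2286 CPM and 0.229%. With Mir142b left out the leukocyte share was 0.105%, the log2 ratio over the erythroid list 0.43 and over the endothelial list -6.02. With Mir223 left out they were 0.162%, 1.04 and -5.41, the last pair chosen after seeing the data. Leaving out each replicate in turn gave 1983 to 2588 CPM, shares of 0.198% to 0.259%, and log2 ratios of 1.21 to 1.87 over the erythroid list and -5.08 to -4.73 over the endothelial list. The number of genes past 1.5-fold between the pools was 35 of 357 with at least 10 counts, 181 of 590 with at least 1 count and 9 of 254 with at least 100 counts, since fewer or more genes of low counts were tested; it was 34 with TMM scaling and 34 with DESeq2 size factors. Under both scalings, without Mir143 in the total and without regard to strand, the ratios of the 5 detected leukocyte genes stayed within their binomial intervals. The interval of Mir223 excluded equal CPM as reported but held it with TMM scaling (log2 -0.12 to 0.01) and with DESeq2 size factors; Mir155 remained past 1.5-fold, at log2 -0.65 with TMM scaling. Of these list and replicate ratios, none changed sign under the alternatives run. No paired analysis was possible because the study has 1 group. With 2 pools, the SD rests on 1 difference, and counts of 4 and 2 limit what can be said of Mir146b.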
